A study of Mus musculus with 12 samples.

Results

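B cell genes were read in 12 RNA sequencing libraries of mouse peritoneal macrophages that had been sorted by FACS (fluorescence-activated cell sorting). The genes were taken from a list of 34 symbols of B lymphocyte genes, by an exact match to the gene names of the deposited table. Of these symbols, 33 were found, and since Ebf1 named 2 rows they gave 34 rows of the 15721 in the table. Vpreb3 was not analysed here. After a filter on low values, which asked for 10 or more normalized reads in 3 or more of the libraries, 30 of the 34 rows were tested, among 13231 genes in all. The 4 rows left out were Cd5, Cd72, Ctla4 and the second row of Ebf1. A gene kept only through the group in which it is high had to differ, so the 30 tested rows do not stand for the whole list. Fcer2a passed only through the Samhd1 Sting dKO libraries, and Cr2 only through 3 libraries of Samhd1 Sting dKO and Samhd1 Cardif dKO. Both stand among the 30 rows counted below, and they lend no support to a count of rows that are high in Samhd1 Sting dKO.

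The libraries came from C57BL/6 mice of 4 genotypes, 3 libraries each, which the labels name WT (wild type), Samhd1 KO (knockout), Samhd1 Cardif dKO (double knockout) and Samhd1 Sting dKO. The 3 mutant groups share the loss of Samhd1, an enzyme that breaks down deoxynucleotides, and each double knockout lacks a second gene. Cardif (Mavs) relays the signal of cytosolic RNA sensors, and Sting (Tmem173) that of the DNA sensor cGAS. The labels give neither the alleles nor the markers used for the sort. All mice were female except the male of Samhd1 Cardif dKO replicate 1. Ages stand in the labels with no unit, at 24, 16 and 18 for the Samhd1 Sting dKO libraries, 18, 18 and 16 for Samhd1 Cardif dKO, 19, 18 and 16 for Samhd1 KO and 16 throughout for WT. Within each mutant group the 3 libraries differ in labelled age, or in age and sex for Samhd1 Cardif dKO, so they did not come from 1 mouse. For WT the labels do not say whether the 3 libraries came from separate mice. The p-values measure the spread between these libraries, which may be technical in part.

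B cells carry the B cell antigen receptor, a membrane immunoglobulin made of heavy and light chains that signals through the Cd79a and Cd79b chains. Pax5, Ebf1, Spib and Pou2af1 hold the B cell programme in place, and the surface proteins Cd22, Ms4a1 (CD20), Cr2 (CD21) and Fcer2a (CD23) mark mature cells. The peritoneal cavity houses macrophages beside B-1 cells, a self-renewing lineage that makes natural antibody, and conventional B-2 cells. In bulk libraries such as these, fewer cells of a type and less RNA per cell cannot be told apart.

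Recovered depth ranged from 18884021 to 32204657 reads per library, and between 32 and 34 of the 34 rows had a read in each library. Values below are normalized reads, which are reads divided by 1 size factor per library, with SD over n = 3 where a mean is given. Fold changes are differences of log2(normalized reads + 1) with their standard error (SE), and adjusted p is from limma over all 13231 tested genes. Macrophage markers were abundant: Csf1r stood at 7932 to 8249 and Lyz2 at 550598 to 779521 normalized reads per kilobase of transcript as group means. Samhd1 itself, the deleted gene, still had reads in the mutants, 5555 to 7816 in Samhd1 KO, 2952 to 4307 in Samhd1 Cardif dKO and 3196 to 4563 in Samhd1 Sting dKO, beside 10113 to 11525 in WT. Mavs read 509 to 525 in Samhd1 Cardif dKO and 768 to 1008 elsewhere. Tmem173 read 538 to 577 in Samhd1 Sting dKO, 481 to 548 in WT, 577 to 653 in Samhd1 Cardif dKO and 696 to 768 in Samhd1 KO. In Samhd1 Sting dKO it lay below Samhd1 KO but overlapped WT, so its transcript did not check the Sting label.

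Most of the B cell genes stood highest in Samhd1 Sting dKO and lowest in Samhd1 KO. The group mean was highest in Samhd1 Sting dKO for 29 of the 30 tested rows, all but Bach2, against 30.1% of all tested genes, and lowest in Samhd1 KO for 25, against 25% of all tested genes. For 23 rows, against 5.95% of all tested genes, the group means ran in the order Samhd1 Sting dKO, WT, Samhd1 Cardif dKO and Samhd1 KO. Every Samhd1 Sting dKO library lay above all of the other 9 libraries for 16 rows, against 3.3% of all tested genes.

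Against Samhd1 KO, 24 of the 30 tested rows were higher in Samhd1 Sting dKO and none was lower. The 24 include Fcer2a, which had to differ there because of the filter. Among all tested genes, 2.77% were called higher in this comparison. The median log2 change of the 30 rows was 2.52, with a range from -0.02 to 3.48, and the median of all tested genes was near 0. All 3 Samhd1 Sting dKO libraries lay above all 3 of Samhd1 KO for 27 rows, against 11.9% of all tested genes. Of the 24 calls, 18 held without any single library and under each other setting in which the gene was tested. On the recovered reads, edgeR called 25 rows higher and DESeq2 27, with 3.06% and 4.88% of all genes given an adjusted p called higher. The calls of Faim3, Fcrl1, Fcrl5, Pou2af1, Cxcr5 and Tnfrsf13c did not, and their libraries are given with each gene.

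Against WT, 11 rows were higher in Samhd1 Sting dKO and none was lower, where 3.57% of all tested genes were called higher. These 11 were Igh-6, Igl-C2, Cd79b, Cd22, Ms4a1, Siglecg, Cr2, Fcer2a, Btla, Ebf1 and Pou2f2. Cr2 and Fcer2a would not have passed the filter without the Samhd1 Sting dKO libraries, so their calls lend the count no support. The median log2 change was 1.39, and all 30 rows had a positive change. All 3 Samhd1 Sting dKO libraries lay above all 3 WT libraries for 20 rows, against 14.6% of all tested genes. The count fell to 5 without WT replicate 1, to 2 without WT replicate 2 or WT replicate 3, and to 3 without Samhd1 Sting dKO replicate 1 or replicate 2. With the labelled age as a covariate it was 2. The count was 14 by edgeR and 21 by DESeq2, which called 3.73% and 6.13% of all genes higher. Cd22 and Btla kept their calls under every setting, while the other 9 lost theirs with age as a covariate and without at least 1 library. Over all settings their highest adjusted p lay between 0.0734 for Ebf1 and 0.196 for Igl-C2.

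Between the double knockouts, 4 rows (Igh-6, Cd22, Ebf1 and Btla) were higher in Samhd1 Sting dKO than in Samhd1 Cardif dKO, where 0.189% of all tested genes were called higher. At an unadjusted p under 0.05, 28 rows were higher, against 7.72% of all tested genes. The median log2 change was 1.90, and the groups did not overlap for 23 rows, against 9.16% of all tested genes. The count was 0 without WT replicate 3, Samhd1 Cardif dKO replicate 1, Samhd1 Cardif dKO replicate 3, Samhd1 Sting dKO replicate 1 or Samhd1 Sting dKO replicate 2, and 2 without WT replicate 1. It was 6 without Samhd1 KO replicate 1. On the recovered reads, edgeR called 5 rows and DESeq2 24, where they called 0.227% and 1.86% of all genes higher. Samhd1 Cardif dKO replicate 1 was the only male library, so sex as a covariate gave the same log2 changes as leaving it out. The count of 0 with sex as a covariate is thus not a separate check.

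No row passed the adjusted threshold for Samhd1 KO against WT, where 4.32% of all tested genes were called in either direction. The median log2 change was -1.01, and 27 of the 30 rows had a negative one. At an unadjusted limma p under 0.05, 18 rows were lower and 1, Pou2f2, was higher, beside 8.59% of all tested genes lower and 10.2% higher. All 3 Samhd1 KO libraries lay below all 3 WT libraries for 15 rows, against 12.9% of all tested genes. The count tests differed here: edgeR called 0 of these rows and DESeq2 called 8, of which 7 were lower and 1 was higher. In either direction, edgeR called 4.43% and DESeq2 8.7% of all genes. Leaving out 1 library gave at most 2 calls, with 2 without Samhd1 KO replicate 1, 2 without Samhd1 Sting dKO replicate 3 and 1 without Samhd1 Cardif dKO replicate 2.

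Samhd1 Cardif dKO gave no call against WT or against Samhd1 KO, where 1.06% and 0.144% of all tested genes were called in either direction. Its median log2 change was -0.44 against WT, with 4 rows lower at an unadjusted limma p under 0.05 (7.27% of all tested genes). It was 0.53 against Samhd1 KO, with 1 row higher at that limit (3.39% of all tested genes). Neither edgeR nor DESeq2 called a row in these comparisons, while edgeR called 1.19% and 0.151% of all genes and DESeq2 3.81% and 1.63%. The comparisons with a common group share its 3 libraries and are not independent of each other.

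**Figure D1:**
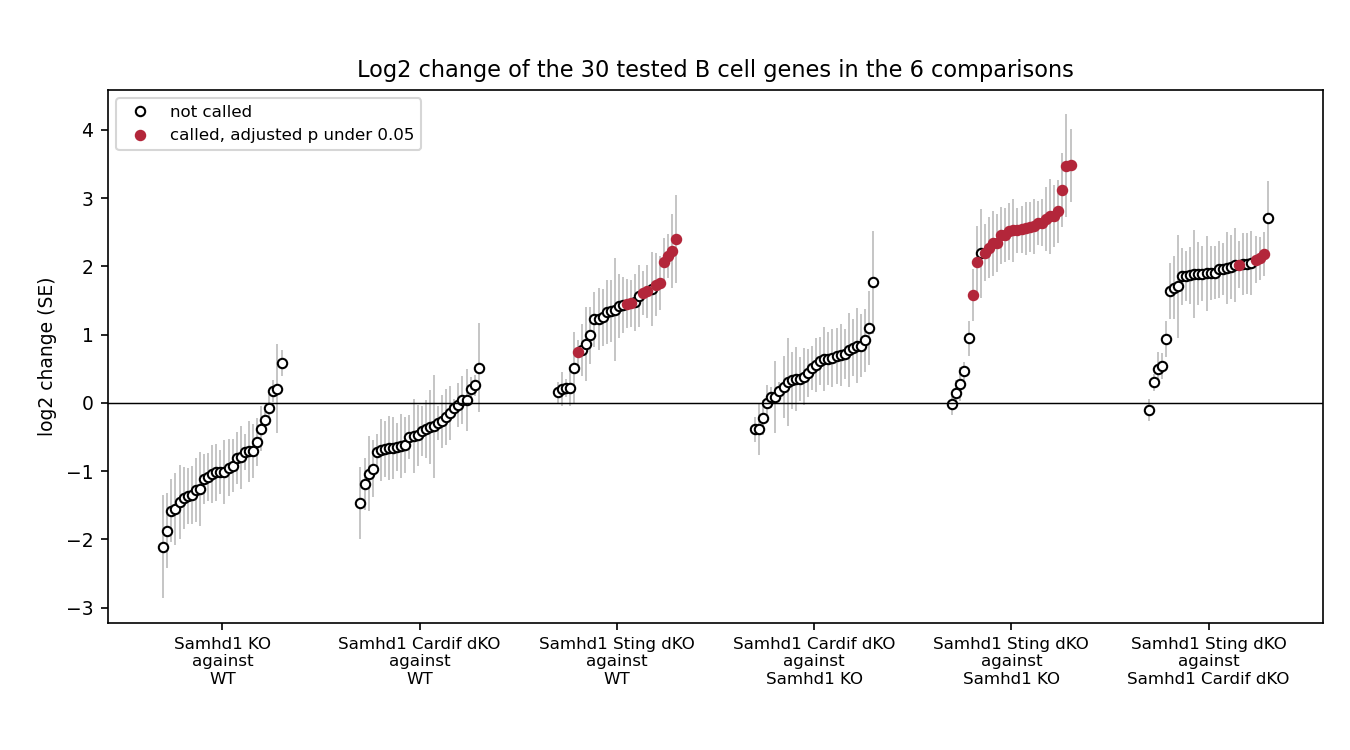
Log2 change (vertical axis, with SE) of each of the 30 tested B cell genes, sorted by size within each of the 6 comparisons along the horizontal axis, with filled points for an adjusted limma p under 0.05. The points lie mostly below 0 for Samhd1 KO against WT and mostly above 0 in all 3 comparisons of Samhd1 Sting dKO, with 24 filled points against Samhd1 KO, 11 against WT and 4 against Samhd1 Cardif dKO.

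Promoter sequences of the members were searched for the sites of 2 B cell factors, Ebf1 and the Oct factor Pou2f2, because most of the list moved together. RefSeq promoters on GRCm38.p6, spanning 250 bases before to 50 bases after a start site, matched 24 of the member genes with 29 promoters. The deposited table uses mm9, and no coordinate was carried between the builds. On both strands, the EBF motif (TCCC and GGGA with any 2 bases between them) was found in 0.9% of all 32851 promoters and in 1 member promoter, that of Cd22. The octamer ATTTGCAT, the site of Oct factors, was found in 1.74% of all promoters and in 1 member promoter, that of Blnk. No match of one motif overlapped the other in these promoters, and a match describes letters only. The search took exact letters, so sites that depart from them were missed, and a promoter without a match may still hold a site. The promoters of Cd22 (called in 3 comparisons), Blnk (not called) and Cd79a (called against Samhd1 KO, with no exact match to either motif) are shown 5′ to 3′ with the match in capitals.
Cd22, chr7:30878979-30879278, minus strand, match at bases 202 to 211: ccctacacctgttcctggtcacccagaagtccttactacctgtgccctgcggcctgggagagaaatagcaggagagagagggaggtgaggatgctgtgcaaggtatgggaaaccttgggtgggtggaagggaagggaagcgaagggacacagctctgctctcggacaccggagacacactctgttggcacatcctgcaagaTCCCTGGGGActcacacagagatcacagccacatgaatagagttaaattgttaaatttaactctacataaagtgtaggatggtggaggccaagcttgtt
Blnk, chr19:40994172-40994471, minus strand, match at bases 121 to 128: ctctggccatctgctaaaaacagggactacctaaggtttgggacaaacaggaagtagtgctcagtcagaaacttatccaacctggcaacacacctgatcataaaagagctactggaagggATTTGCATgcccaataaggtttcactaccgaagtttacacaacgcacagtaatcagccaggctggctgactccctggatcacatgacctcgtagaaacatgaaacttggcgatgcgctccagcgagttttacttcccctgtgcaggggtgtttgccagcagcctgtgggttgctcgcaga
Cd79a, chr7:24897247-24897546, plus strand: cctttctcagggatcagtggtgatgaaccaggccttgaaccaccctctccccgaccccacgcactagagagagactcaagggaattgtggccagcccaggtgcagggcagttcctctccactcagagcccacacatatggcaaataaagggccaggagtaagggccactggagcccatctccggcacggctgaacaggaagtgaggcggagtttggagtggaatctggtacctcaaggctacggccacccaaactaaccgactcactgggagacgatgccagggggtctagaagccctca

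The 5 constant and signalling chains of the antigen receptor rose together against Samhd1 KO, where all 5 were called higher. Igh-6 (ENSMUSG00000076617), the file's symbol for the heavy chain constant gene of IgM (Ighm), read 2657, 2095 and 1139 in Samhd1 Sting dKO, against 833, 474 and 774 in WT, 424, 324 and 232 in Samhd1 KO and 319.6, 649 and 387 in Samhd1 Cardif dKO. Every Samhd1 Sting dKO library exceeded every other library, and the Samhd1 KO libraries lay below those of WT without overlap. Igh-6 changed by 2.54 (SE 0.349, adjusted p = 0.00198) against Samhd1 KO, by 1.46 (SE 0.349, adjusted p = 0.0298) against WT and by 2.10 (SE 0.349, adjusted p = 0.0327) against Samhd1 Cardif dKO. The call against WT was lost without any 1 of the WT libraries or without Samhd1 Sting dKO replicate 1 or 2 (adjusted p up to 0.106). The call against Samhd1 Cardif dKO was lost without WT replicate 1 or 3, Samhd1 Cardif dKO replicate 1 or 3, or Samhd1 Sting dKO replicate 1 or 2 (adjusted p up to 0.125).

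Cd79a (ENSMUSG00000003379), 1 of the 2 chains that carry the receptor's signal into the cell, read 532, 379 and 227 in Samhd1 Sting dKO, against 193, 120.3 and 153 in WT, 95.6, 64.0 and 33.0 in Samhd1 KO and 64.5, 142 and 94.5 in Samhd1 Cardif dKO. Every Samhd1 Sting dKO library again exceeded every other library, and the Samhd1 KO libraries lay below WT. Cd79a changed by 2.59 (SE 0.407, adjusted p = 0.00367) against Samhd1 KO. The change was 1.22 (SE 0.407, adjusted p = 0.0963) against WT and -1.36 (SE 0.407, adjusted p = 0.0856) for Samhd1 KO against WT, both short of the threshold. The partner chain Cd79b (ENSMUSG00000040592) read 727, 499 and 279 in Samhd1 Sting dKO, against 181, 116 and 159 in WT, 98.1, 72.3 and 67.9 in Samhd1 KO and 69.6, 203 and 133 in Samhd1 Cardif dKO. It rose by 2.56 (SE 0.387, adjusted p = 0.00303) against Samhd1 KO and by 1.64 (SE 0.387, adjusted p = 0.0284) against WT, the latter lost without any 1 of the WT libraries or without Samhd1 Sting dKO replicate 1 or 2, with an adjusted p of up to 0.0984.

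The light chains moved with them. Igk-C, the constant gene of the kappa chain (Igkc), read 559.6, 402 and 242 in Samhd1 Sting dKO, against 187, 102 and 173 in WT, 107, 53.7 and 30.2 in Samhd1 KO and 70.7, 148 and 72.7 in Samhd1 Cardif dKO. Samhd1 Sting dKO stood above all other libraries, while Samhd1 KO and WT overlapped through Samhd1 KO replicate 1. Igk-C rose by 2.74 (SE 0.454, adjusted p = 0.00494) against Samhd1 KO, and its change of 1.34 (SE 0.454, adjusted p = 0.101) against WT was not called. Igl-C2 (Iglc2), a constant gene of the lambda chain, read 234, 169 and 93.0 in Samhd1 Sting dKO, against 60.6, 30.6 and 51.9 in WT, 40.4, 26.8 and 16.0 in Samhd1 KO and 25.6, 75.3 and 54.5 in Samhd1 Cardif dKO. Its near-identical neighbour Igl-C3 (Iglc3) can share its reads, so the split between these genes is uncertain. Igl-C3 read 7.54 to 48.3 in the other groups and 83.5 to 163 in Samhd1 Sting dKO. Igl-C2 rose by 2.53 (SE 0.460, adjusted p = 0.00842) against Samhd1 KO and by 1.73 (SE 0.460, adjusted p = 0.0452) against WT. The latter call was lost without any 1 of the WT libraries, Samhd1 KO replicate 2, Samhd1 Cardif dKO replicate 3, or Samhd1 Sting dKO replicate 1 or 2 (adjusted p up to 0.1496).

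Summed, the 5 receptor genes read 4710.1, 3544 and 1979.7 in Samhd1 Sting dKO, against 1454, 842 and 1310.3 in WT, 766, 541 and 379 in Samhd1 KO and 550.0, 1218 and 742 in Samhd1 Cardif dKO. Per kilobase of transcript, the mean level in Samhd1 Sting dKO was 1436 normalized reads for Igh-6, 1242 for Igk-C and 260.3 for Cd79a, beside 8249 for the macrophage receptor gene Csf1r on the same scale. Within Samhd1 Sting dKO the replicates differed too. Replicate 1 was the highest of all 12 libraries for 24 of the 30 tested rows, and within the group replicate 1 was highest and replicate 3 lowest for 23. The labelled ages of replicates 1, 2 and 3 were 24, 16 and 18, and the part of age in this order was not tested. Samhd1 KO replicate 3 was the lowest library for 19 rows.

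**Figure D2:**
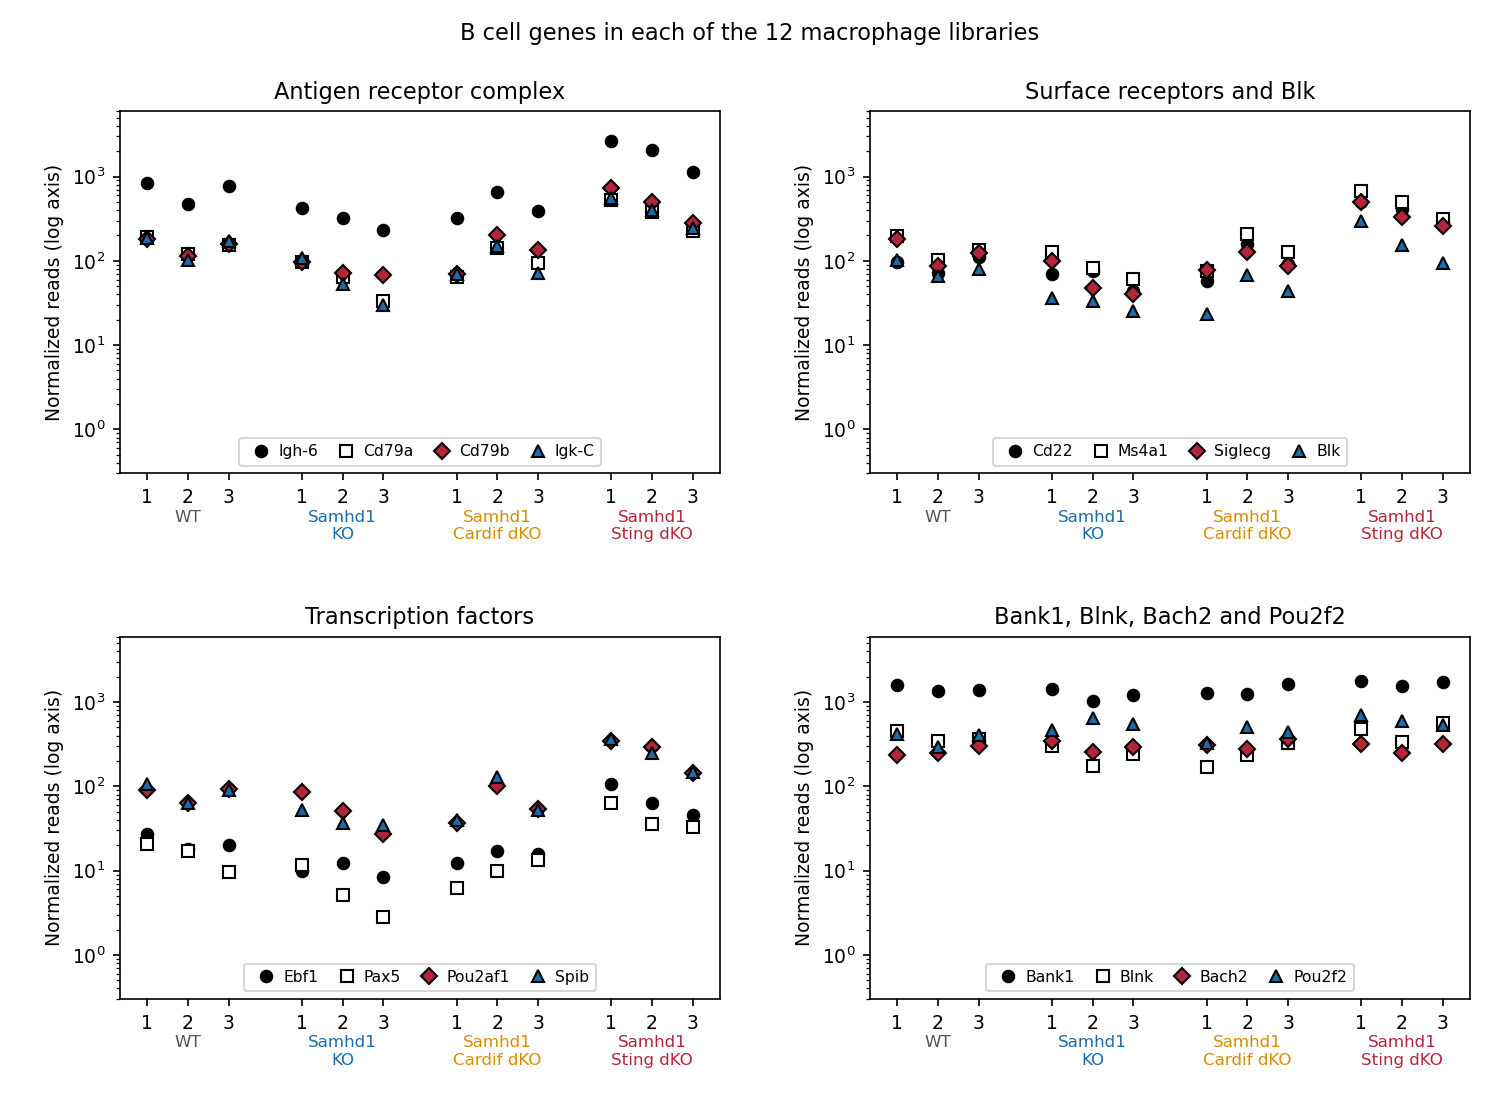
Normalized reads (log axis) of 16 B cell genes in each of the 12 libraries, with the replicate number and the genotype along the horizontal axis and 1 point per gene and library. The points for the receptor, surface and first transcription factor panels stand highest in Samhd1 Sting dKO, while Bank1, Blnk, Bach2 and Pou2f2 keep to a narrower band over all groups.

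Of the 3 signalling genes tested, 1 was called in any comparison. Blk (ENSMUSG00000014453), a Src-family kinase of B cells, read 299, 154 and 93.0 in Samhd1 Sting dKO, against 101, 65.9 and 80.0 in WT, 36.3, 33.0 and 25.5 in Samhd1 KO and 23.6, 67.2 and 43.6 in Samhd1 Cardif dKO. Every Samhd1 KO library lay below every WT library, and the lowest Samhd1 Sting dKO library lay below the highest WT library. Blk rose by 2.34 (SE 0.418, adjusted p = 0.00755) against Samhd1 KO, and its change of 0.99 (SE 0.418, adjusted p = 0.183) against WT was not called. Blnk, the adaptor that links the receptor kinase Syk to its targets, read 484, 337 and 564 in Samhd1 Sting dKO, against 458, 348 and 362 in WT, 301, 174 and 244 in Samhd1 KO and 170.0, 234 and 326 in Samhd1 Cardif dKO. Its change of 0.95 (SE 0.262, adjusted p = 0.0567) against Samhd1 KO missed the threshold although the groups did not overlap. Bank1, a scaffold of B cell signalling, was far more abundant, from 1039.5 to 1796.5 normalized reads over the 12 libraries, with a log2 change of 0.47 (SE 0.131, adjusted p = 0.0558) against Samhd1 KO.

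Among 11 tested surface genes, 10 rose against Samhd1 KO and 6 rose against WT. Cd22, a sialic acid-binding lectin that restrains receptor signals, read 504, 413 and 279 in Samhd1 Sting dKO, against 96.6, 71.6 and 110.4 in WT, 69.2, 76.4 and 43.4 in Samhd1 KO and 58.4, 158 and 90.9 in Samhd1 Cardif dKO. Every Samhd1 Sting dKO library was above every other library, and the other 3 groups overlapped. Cd22 rose by 2.64 (SE 0.346, adjusted p = 0.00143) against Samhd1 KO, by 2.07 (SE 0.346, adjusted p = 0.00603) against WT and by 2.03 (SE 0.346, adjusted p = 0.0345) against Samhd1 Cardif dKO. The last call was lost without WT replicate 1 or 3, Samhd1 Cardif dKO replicate 1 or 3, or any 1 of the Samhd1 Sting dKO libraries, with an adjusted p of up to 0.126. Ms4a1, which encodes CD20, read 671, 502 and 315 in Samhd1 Sting dKO, against 199.8, 101 and 134 in WT, 126, 81.5 and 60.3 in Samhd1 KO and 74.8, 206 and 128 in Samhd1 Cardif dKO, and rose by 2.46 (SE 0.399, adjusted p = 0.00434) against Samhd1 KO. Its rise against WT was 1.76 (SE 0.399, adjusted p = 0.0246), not called without WT replicate 2 or 3 or Samhd1 Sting dKO replicate 1 or 2, where the adjusted p reached 0.0884.

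Btla, an inhibitory receptor of lymphocytes, read 109, 115 and 58.4 in Samhd1 Sting dKO, against 20.8, 17.2 and 20.8 in WT, 23.1, 11.4 and 12.3 in Samhd1 KO and 15.4, 22.1 and 20.6 in Samhd1 Cardif dKO. The Samhd1 Sting dKO libraries stood apart, and the WT and Samhd1 Cardif dKO libraries covered nearly the same range. Btla was the gene with the smallest adjusted p among the rows against WT, with a change of 2.15 (SE 0.325, adjusted p = 0.00383). It rose by 2.53 (SE 0.325, adjusted p = 0.00126) against Samhd1 KO and by 2.18 (SE 0.325, adjusted p = 0.0309) against Samhd1 Cardif dKO, the latter call lost without WT replicate 3 or without any 1 library of the 2 groups compared other than Samhd1 Sting dKO replicate 3 (adjusted p up to 0.0838). Siglecg, a lectin that restrains receptor signals and is higher on B-1 cells without being restricted to them, read 498, 327 and 259 in Samhd1 Sting dKO, against 183, 87.8 and 125 in WT, 98.9, 47.5 and 40.5 in Samhd1 KO and 76.8, 127 and 87.3 in Samhd1 Cardif dKO. It rose by 2.57 (SE 0.365, adjusted p = 0.00220) against Samhd1 KO and by 1.46 (SE 0.365, adjusted p = 0.0354) against WT, the latter not without WT replicate 2 or 3 or Samhd1 Sting dKO replicate 1 or 2 (adjusted p up to 0.125).

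Ly6d, a GPI-anchored protein of B lineage cells, read 218, 184 and 77.5 in Samhd1 Sting dKO, against 72.0, 47.7 and 68.2 in WT, 25.5, 20.6 and 15.1 in Samhd1 KO and 21.5, 78.3 and 33.9 in Samhd1 Cardif dKO. Faim3 (Fcmr), the receptor for IgM, read 123, 109 and 51.3 in Samhd1 Sting dKO, against 45.4, 26.7 and 34.1 in WT, 21.4, 22.7 and 9.43 in Samhd1 KO and 12.3, 41.1 and 19.4 in Samhd1 Cardif dKO. Fcrla, an intracellular Fc receptor-like protein, read 142, 128 and 68.0 in Samhd1 Sting dKO, against 37.9, 19.1 and 49.7 in WT, 16.5, 18.6 and 4.71 in Samhd1 KO and 15.4, 47.2 and 23.0 in Samhd1 Cardif dKO. For all 3, the Samhd1 KO libraries lay below those of WT and the Samhd1 Sting dKO libraries above them. Against Samhd1 KO the rise was 2.81 (SE 0.459, adjusted p = 0.00458) for Ly6d. For Faim3 it was 2.34 (SE 0.472, adjusted p = 0.0145), and the adjusted p was 0.0543 without Samhd1 KO replicate 3, 0.0544 without Samhd1 Sting dKO replicate 1 and 0.0560 without Samhd1 Sting dKO replicate 2. Fcrla rose by 3.12 (SE 0.542, adjusted p = 0.00652).

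The Fc receptor-like genes Fcrl1 and Fcrl5, whose proteins sit on the B cell surface, had few reads. Fcrl1 read 33.0, 31.5 and 14.3 in Samhd1 Sting dKO, against 16.1, 11.5 and 14.8 in WT, 5.77, 11.4 and 6.60 in Samhd1 KO and 5.12, 7.02 and 4.85 in Samhd1 Cardif dKO. Fcrl5, known from marginal zone and B-1 cells but not restricted to them, read 59.4, 43.9 and 14.3 in Samhd1 Sting dKO, against 23.7, 11.5 and 21.5 in WT, 5.77, 6.19 and 1.89 in Samhd1 KO and 5.12, 10.03 and 10.9 in Samhd1 Cardif dKO. Samhd1 KO lay below WT for both, and Samhd1 Sting dKO overlapped WT through its replicate 3. Against Samhd1 KO, Fcrl1 rose by 1.58 (SE 0.378, adjusted p = 0.0322). That call was lost without Samhd1 KO replicate 1 (adjusted p = 0.0838), Samhd1 KO replicate 3 (0.0987), Samhd1 Sting dKO replicate 1 (0.104) or Samhd1 Sting dKO replicate 2 (0.110). Fcrl5 rose by 2.74 (SE 0.547, adjusted p = 0.0139), with an adjusted p of 0.0516 without Samhd1 KO replicate 3, 0.0526 without Samhd1 Sting dKO replicate 1 and 0.0553 without Samhd1 Sting dKO replicate 2. Cd72, a further inhibitory receptor, had 2.96 to 19.8 normalized reads and was not tested.

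Both genes of migration and survival were called in Samhd1 Sting dKO against Samhd1 KO, and neither was called in another comparison. Cxcr5, the chemokine receptor that leads B cells into follicles, read 287, 149.6 and 77.5 in Samhd1 Sting dKO, against 129, 78.3 and 113 in WT, 51.9, 36.1 and 22.6 in Samhd1 KO and 20.5, 82.3 and 30.3 in Samhd1 Cardif dKO. Samhd1 KO lay below WT, and Samhd1 Sting dKO overlapped WT. Cxcr5 rose by 2.07 (SE 0.530, adjusted p = 0.0426) against Samhd1 KO. This was the least stable of the 24 calls, with an adjusted p between 0.0505 and 0.139 without any 1 of the WT, Samhd1 KO or Samhd1 Cardif dKO replicate 3 libraries or without Samhd1 Sting dKO replicate 1 or 2. Tnfrsf13c, the receptor of the survival factor BAFF, read 60.5, 33.7 and 23.9 in Samhd1 Sting dKO, against 25.6, 8.59 and 11.1 in WT, 9.07, 0 and 2.83 in Samhd1 KO and 13.3, 17.1 and 4.85 in Samhd1 Cardif dKO. It rose by 3.48 (SE 0.754, adjusted p = 0.0204) from a mean of 3.96 ± 4.64 to 39.4 ± 18.9, a call lost without Samhd1 KO replicate 2 (adjusted p = 0.0543), Samhd1 KO replicate 3 (0.0519), Samhd1 Sting dKO replicate 1 (0.0698) or Samhd1 Sting dKO replicate 2 (0.0566).

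Of 9 transcription factor rows tested, 6 rose against Samhd1 KO and 2 rose against WT. Ebf1, which with Pax5 commits precursors to the B lineage, read 108, 64.1 and 45.3 in Samhd1 Sting dKO, against 27.5, 18.1 and 20.0 in WT, 9.89, 12.4 and 8.49 in Samhd1 KO and 12.3, 17.1 and 15.8 in Samhd1 Cardif dKO in its main row (ENSMUSG00000057098). The Samhd1 Sting dKO libraries stood above all others and those of Samhd1 KO below those of WT. Ebf1 rose by 2.63 (SE 0.321, adjusted p = 0.000964) against Samhd1 KO, by 1.61 (SE 0.321, adjusted p = 0.0141) against WT and by 2.12 (SE 0.321, adjusted p = 0.0312) against Samhd1 Cardif dKO. The call against WT was lost without WT replicate 2 or 3 (adjusted p up to 0.0532), and that against Samhd1 Cardif dKO without WT replicate 3, any 1 of the Samhd1 Cardif dKO libraries, or Samhd1 Sting dKO replicate 1 or 2 (up to 0.0911). The second row of Ebf1 (ENSMUSG00000078561), a transcript of 453 bases, had at most 11.0 normalized reads, in Samhd1 Sting dKO replicate 1.

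Pax5 read 62.7, 36.0 and 33.4 in Samhd1 Sting dKO, against 20.8, 17.2 and 9.63 in WT, 11.5, 5.16 and 2.83 in Samhd1 KO and 6.15, 10.03 and 13.3 in Samhd1 Cardif dKO. It rose by 2.70 (SE 0.471, adjusted p = 0.00658) against Samhd1 KO, while the change of 1.42 (SE 0.471, adjusted p = 0.0949) against WT was not called although the groups did not overlap. Spib, an Ets factor of B cells and plasmacytoid dendritic cells, read 367, 247 and 147 in Samhd1 Sting dKO, against 107, 63.0 and 90.4 in WT, 51.9, 37.2 and 34.9 in Samhd1 KO and 39.9, 130.4 and 52.1 in Samhd1 Cardif dKO. The coactivator Pou2af1, which binds Oct factors on immunoglobulin promoters, read 342, 291 and 144 in Samhd1 Sting dKO, against 90.9, 64.0 and 92.6 in WT, 84.9, 51.6 and 27.3 in Samhd1 KO and 36.9, 100.3 and 53.3 in Samhd1 Cardif dKO. Against Samhd1 KO, Spib rose by 2.51 (SE 0.420, adjusted p = 0.00524) and Pou2af1 by 2.28 (SE 0.449, adjusted p = 0.0129), the latter with an adjusted p of 0.0501 without Samhd1 Sting dKO replicate 1 and 0.0505 without replicate 2. Ikzf3 (Aiolos), a zinc finger factor of mature B cells, read 245, 149.6 and 78.7 in Samhd1 Sting dKO, against 54.9, 43.9 and 58.6 in WT, 25.5, 28.9 and 21.7 in Samhd1 KO and 32.8, 84.3 and 32.7 in Samhd1 Cardif dKO. Its rise was 2.45 (SE 0.412, adjusted p = 0.00531) against Samhd1 KO, and Samhd1 Sting dKO replicate 3 lay below the highest Samhd1 Cardif dKO library.

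Pou2f2 (Oct2), the Oct factor that Pou2af1 binds, differed in pattern from these. It read 706, 605 and 539 in Samhd1 Sting dKO, against 414, 294 and 405 in WT, 471, 649 and 548 in Samhd1 KO and 328, 512 and 445 in Samhd1 Cardif dKO. Both Samhd1 KO and Samhd1 Sting dKO lay above WT without overlap, with a change of 0.59 (SE 0.187, adjusted p = 0.105) and 0.74 (SE 0.187, adjusted p = 0.0367). The second was called, and lost without any 1 of the WT or Samhd1 Sting dKO libraries or without Samhd1 KO replicate 3 (adjusted p up to 0.128). Bach2, a repressor that holds B cells back from plasma cell fate, ranged from 238 to 362 normalized reads, with the highest group mean in Samhd1 Cardif dKO and a change of -0.02 (SE 0.156, adjusted p = 0.956) in Samhd1 Sting dKO against Samhd1 KO. That small change turned positive when either Samhd1 KO replicate 1 or replicate 2 of Samhd1 Sting dKO was left out.

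Within each library, a chosen part of the B cell genes was set against Cd79a, and many of these kept a steady ratio to it. Over the 12 libraries the highest ratio of Igk-C to Cd79a was 1.47 times the lowest, and the figure was 1.68 for Siglecg, 1.79 for Igh-6, 1.89 for Pou2af1, 2.02 for Spib, 2.11 for Blk, 2.17 for Ms4a1, 2.20 for Cd79b and 2.27 for Igl-C2. Cd79a itself spanned a 16.1-fold range of normalized reads, and Igh-6 an 11.5-fold range. The ratio moved more for Cd22, 2.63 times, where it was 0.5 to 0.723 in WT and 0.905 to 1.31 in the double knockouts together with Samhd1 KO replicates 2 and 3. It moved further for 5 genes: 8.31 times for Blnk, 11.0 for Bank1, 12.5 for Pou2f2, 13.0 for Bhlhe41 and 15.2 for Bach2. The ratio was not taken for the remaining members, among them Cr2, Fcer2a and Tnfrsf13c, so others may also depart from Cd79a. Reads of Bank1 were 37.0 times those of Cd79a in Samhd1 KO replicate 3 and 3.38 times in Samhd1 Sting dKO replicate 1. These ratios are descriptions over libraries of different depth, with no test.

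**Figure D3:**
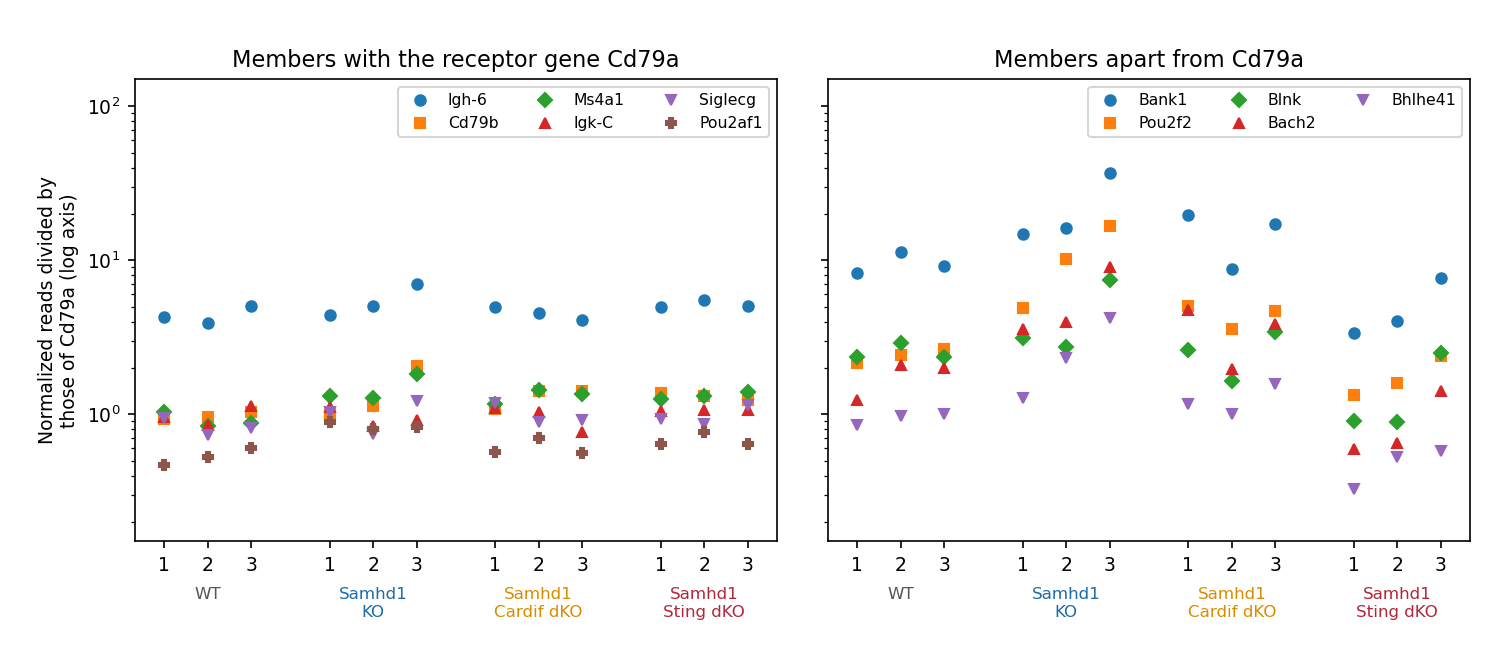
Normalized reads of B cell genes divided by those of Cd79a in the same library (log axis), with the 12 libraries by genotype and replicate along the horizontal axis. The 6 genes on the left stay in narrow bands, with Igk-C within 1.47 times, while the 5 on the right rise in Samhd1 KO replicate 3 and fall in Samhd1 Sting dKO replicates 1 and 2, with Bach2 spanning 15.2 times.

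B-1 genes and B-2 genes were next set against each other. Zbtb32, a zinc finger repressor abundant in B-1 cells, read 172, 96.7 and 53.7 in Samhd1 Sting dKO, against 54.0, 26.7 and 43.7 in WT, 20.6, 24.8 and 16.0 in Samhd1 KO and 16.4, 30.1 and 33.9 in Samhd1 Cardif dKO. Samhd1 KO lay below WT, and Samhd1 Sting dKO replicate 3 was level with the highest WT library. Zbtb32 rose by 2.20 (SE 0.416, adjusted p = 0.00995) in Samhd1 Sting dKO against Samhd1 KO. Bhlhe41, a factor needed by B-1a cells, read 174, 201 and 130.0 in Samhd1 Sting dKO, against 165, 117 and 153 in WT, 122, 149 and 139.6 in Samhd1 KO and 75.8, 142 and 149 in Samhd1 Cardif dKO. All groups overlapped, and its change of 0.28 (SE 0.252, adjusted p = 0.566) against Samhd1 KO was not called. Cd5, the surface marker of B-1a cells, had 6.60, 5.62 and 4.77 in Samhd1 Sting dKO, against 7.57, 0.955 and 3.71 in WT, 0.824, 2.06 and 0.943 in Samhd1 KO and 0, 3.01 and 1.21 in Samhd1 Cardif dKO. Ctla4, an inhibitory receptor that B-1a cells also carry, had 13.2, 2.25 and 29.8 in Samhd1 Sting dKO, against 6.63, 5.73 and 5.19 in WT, 3.30, 3.10 and 0 in Samhd1 KO and 3.07, 5.02 and 6.06 in Samhd1 Cardif dKO. Neither was tested, and both are also T cell genes.

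The B-2 genes were few in reads but spread wide. Cr2, the complement receptor CD21, read 26.4, 40.5 and 9.54 in Samhd1 Sting dKO, against 6.63, 0.955 and 4.45 in WT, 3.30, 4.13 and 4.71 in Samhd1 KO and 2.05, 10.03 and 6.06 in Samhd1 Cardif dKO. Samhd1 Sting dKO lay above WT and Samhd1 KO, and its replicate 3 lay just below the highest Samhd1 Cardif dKO library. Cr2 rose by 2.40 (SE 0.648, adjusted p = 0.0480) against WT, a call lost without any 1 of the WT, Samhd1 KO, Samhd1 Cardif dKO replicate 2 or 3, or Samhd1 Sting dKO replicate 1 or 2 libraries (adjusted p up to 0.157). Fcer2a, the low-affinity IgE receptor CD23, read 55.0, 57.4 and 20.3 in Samhd1 Sting dKO, against 8.52, 5.73 and 9.63 in WT, 7.42, 2.06 and 0.943 in Samhd1 KO and 5.12, 6.02 and 4.85 in Samhd1 Cardif dKO. Samhd1 Sting dKO was above all other libraries. Fcer2a rose by 3.48 (SE 0.541, adjusted p = 0.00354) against Samhd1 KO and by 2.22 (SE 0.541, adjusted p = 0.0316) against WT. Because it passed the filter only through Samhd1 Sting dKO, it had to differ there, and its calls support nothing. The call against WT was lost without any 1 of the WT libraries or without Samhd1 Sting dKO replicate 1 or 2 (adjusted p up to 0.103).

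The share of Cr2 and Fcer2a reads among those of Cr2, Fcer2a and Zbtb32 compares the B-2 genes with Zbtb32, 1 of the B-1 genes, inside each library. Bhlhe41 had more reads than Zbtb32 (74 to 207 per library against 16 to 156), and Cd5 and Ctla4 few. Samhd1 Sting dKO gave 32.2%, 50.3% and 35.7%, beside 21.9%, 20.0% and 24.4% for WT. Samhd1 KO gave 34.2%, 20.0% and 26.1%, and the Samhd1 Cardif dKO libraries 30.4%, 34.8% and 24.3%. All 3 Samhd1 Sting dKO libraries lay above all 3 WT libraries, and they overlapped the other groups. The mean was 22.1% ± 2.18 in WT and 39.4% ± 9.60 in Samhd1 Sting dKO (SD, n = 3), a difference of 17.3 percentage points with a two-sided exact permutation p = 0.1. This is the smallest p that 3 libraries against 3 allow, so the design cannot reach the threshold. Only a description by library had been planned for the B-1 and B-2 genes, with no test. Neither Cr2 nor Fcer2a would have passed the filter without the Samhd1 Sting dKO libraries. A higher share in that group, and its p, therefore lend no support to a B-2 difference. The 5 other comparisons gave exact permutation p of 0.2 to 0.6, and adjusted over the 6 by Benjamini-Hochberg the values ran from 0.3 to 0.6. With all 4 B-1 genes in place of Zbtb32, a choice made after seeing the data, the share was 5.58% ± 1.17 in WT and 18.2% ± 6.11 in Samhd1 Sting dKO (SD, n = 3), a difference of 12.6 percentage points (exact permutation p = 0.1, adjusted 0.2). Bhlhe41 gave 174 of the 246 B-1 reads in WT replicate 1, 148 of 166 in Samhd1 KO replicate 3 and 158 of 332 in Samhd1 Sting dKO replicate 1. It overlapped in all groups and did not follow Cd79a. This share can therefore rise with any gene that follows Cd79a, and it cannot set B-2 against B-1 genes. The exact binomial (Clopper-Pearson) 95% interval ran from 42.6% to 58.0% in Samhd1 Sting dKO replicate 2 (87 of its reads were B-2 and 86 were Zbtb32), from 26.2% to 38.6% in replicate 1 and from 8.44% to 36.9% in WT replicate 2. These intervals cover counting error only, since the reads carried no molecular identifiers.

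**Figure D4:**
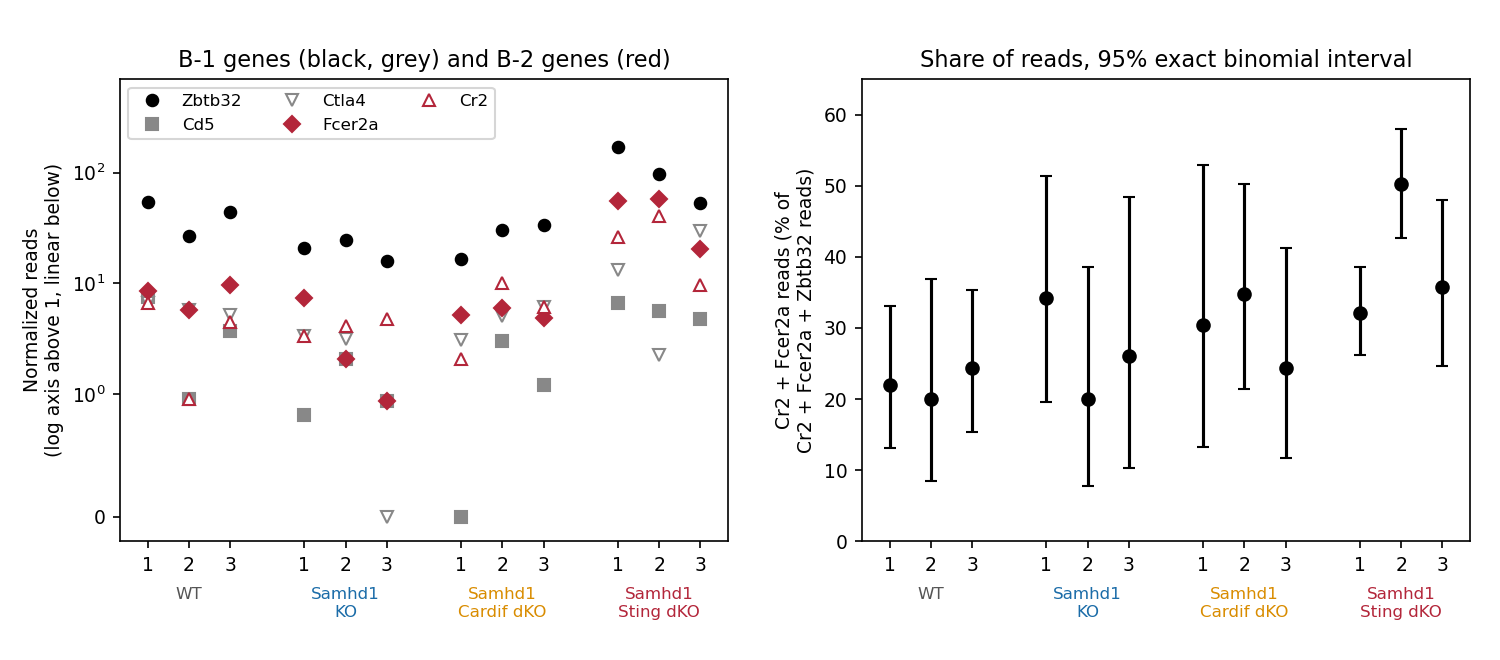
Left, normalized reads of B-1 genes (Zbtb32, Cd5, Ctla4) and B-2 genes (Cr2, Fcer2a) in each of the 12 libraries, on an axis that is logarithmic above 1 and linear below. Right, the share (%) of Cr2 and Fcer2a reads among Cr2, Fcer2a and Zbtb32 reads, with 95% exact binomial intervals, which is highest in Samhd1 Sting dKO replicate 2 at 50.3% and 20.0% to 24.4% in WT.

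Immunoglobulin variable segments, summed over 13 rows of the table, read 29.6 to 59.7 normalized reads in WT, 6.60 to 38.7 in Samhd1 KO, 19.5 to 51.2 in Samhd1 Cardif dKO and 111 to 244 in Samhd1 Sting dKO. That was 2.85% to 9.74% of the Igh-6 reads of the same library. Of 8 listed genes of antibody-secreting plasma cells, 3 were tested and 1 was called. That gene, Xbp1, which macrophages also express, fell against WT by 0.45 on the log2 scale in Samhd1 Sting dKO (SE 0.106, adjusted p = 0.0292), by 0.55 in Samhd1 KO (adjusted p = 0.0158) and by 0.55 in Samhd1 Cardif dKO (adjusted p = 0.0341).

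Other genes of the receptor pathway were read beside the members. The 18 tested genes of B cell receptor signalling outside the members had a median log2 change of 0.04 in Samhd1 Sting dKO against Samhd1 KO. Among them, 2 were higher and 1 was lower. The lower gene was Pik3cd, a lipid kinase subunit of leukocytes, which fell by 0.43 on the log2 scale (adjusted p = 0.00494). Against WT, Ptpn6 and Malt1 were higher in Samhd1 Sting dKO, and Pik3cd, Malt1 and Vav1 were higher in Samhd1 KO. The list holds many genes that macrophages also use, such as Lyn and Btk.

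Of 16 other B lineage genes tested, 4 were higher in Samhd1 Sting dKO against WT and none was lower. Against Samhd1 Cardif dKO limma called 0, with 7 at an unadjusted p under 0.05. Genes higher against Samhd1 KO included H2-Ob, Il5ra, Chst3 and Tnfrsf13b, and none was lower. Il5ra, the interleukin-5 receptor chain of B-1 cells and eosinophils, read 4.71 to 14.8 in Samhd1 KO and 20.3 to 50.6 in Samhd1 Sting dKO, with a change of 1.96 (SE 0.481, adjusted p = 0.0355). Chst3 rose by 3.16 (SE 0.421, adjusted p = 0.00154) and H2-Ob, a subunit of the B cell MHC II chaperone H2-O, by 1.04 (SE 0.157, adjusted p = 0.00303). Cd40 was higher than in WT in all 3 mutant groups, by 0.62 in Samhd1 KO (adjusted p = 0.0138), 0.83 in Samhd1 Cardif dKO (adjusted p = 0.00756) and 0.91 in Samhd1 Sting dKO (adjusted p = 0.00170), a pattern unlike that of the receptor genes.

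Markers of other cell types were read beside these genes, and their part in the result was not tested. Of 11 macrophage markers, 1 was called in Samhd1 Sting dKO against WT and against Samhd1 KO. That gene was Fcgr1, which fell by 0.75 and 0.99 on the log2 scale (adjusted p = 0.0199 and 0.00461). The summed macrophage markers read 1282526 to 1398161 in WT, 958579 to 1143253 in Samhd1 KO, 899111 to 1282407 in Samhd1 Cardif dKO and 1198404 to 1267695 in Samhd1 Sting dKO. Lyz2 alone gave most of these sums, with 916436 to 1096464 in WT and 599699 to 807748 in Samhd1 KO. In Samhd1 KO against WT, 0 of the 11 markers were called, where 4.32% of all tested genes were called in either direction. Mast cell markers, 6 of 7 in the table, also moved with the genotype. Their sum was 85.0 to 263 in WT, 7.23 to 9.89 in Samhd1 KO and 37.1 to 62.5 in Samhd1 Cardif dKO. In Samhd1 Sting dKO it was 385 and 521 in replicates 1 and 2 and 35.8 in replicate 3, which like the other two lay above every Samhd1 KO library for 27 tested B cell rows. Against Samhd1 KO, 4 of 5 tested mast cell genes were higher, where 2.77% of all tested genes were. In Samhd1 KO against WT 3 were lower, where 4.32% of all tested genes were called in either direction. Kit, 1 of the 5, passed the filter only through WT replicate 3 and Samhd1 Sting dKO replicates 1 and 2. It lends these counts no support.

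T cell markers, 10 of 12 in the table, summed to 44.9 to 85.2 in WT, 23.7 to 73.5 in Samhd1 KO, 72.7 to 138 in Samhd1 Cardif dKO and 100.1 to 181 in Samhd1 Sting dKO. Cd28 had 8.26 to 145 of these reads. The defining genes Cd3d, Cd3e and Cd3g had at most 9.47, 5.19 and 3.37 normalized reads in any library, and Cd4 and Cd8b1 at most 8.9998 and 3.37. Lat, an adaptor of T cell receptor signalling, read 12.1, 13.5 and 10.7 in Samhd1 Sting dKO and at most 8.26 in every other library. Neither of the 2 T cell markers tested, Cd28 and Lat, was called by limma, and 1 had an unadjusted p under 0.05 in Samhd1 Sting dKO against Samhd1 KO. Lat passed the filter only through the Samhd1 Sting dKO libraries. It had to be high there, and its values lend no support to a T cell difference. NK cell markers, 3 of 6 in the table, summed to 1.89 to 8.35. Plasmacytoid dendritic cell markers, 3 of 5 in the table, summed to 2884 to 4119, with Bst2, 1 of 2 tested genes, lower in Samhd1 Sting dKO against Samhd1 KO. Nearly all of that sum was Bst2 (1184 to 2519) and Tcf4 (1455 to 2024). The remaining marker, Ccr9, had at most 10.1 normalized reads in any library, so the sum does not measure plasmacytoid cells. The mesothelial marker in the table had at most 8.19 normalized reads. Haemoglobin genes read 84.7 in Samhd1 Sting dKO replicate 3 and at most 2.86 in every other library.

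**Figure D5:**
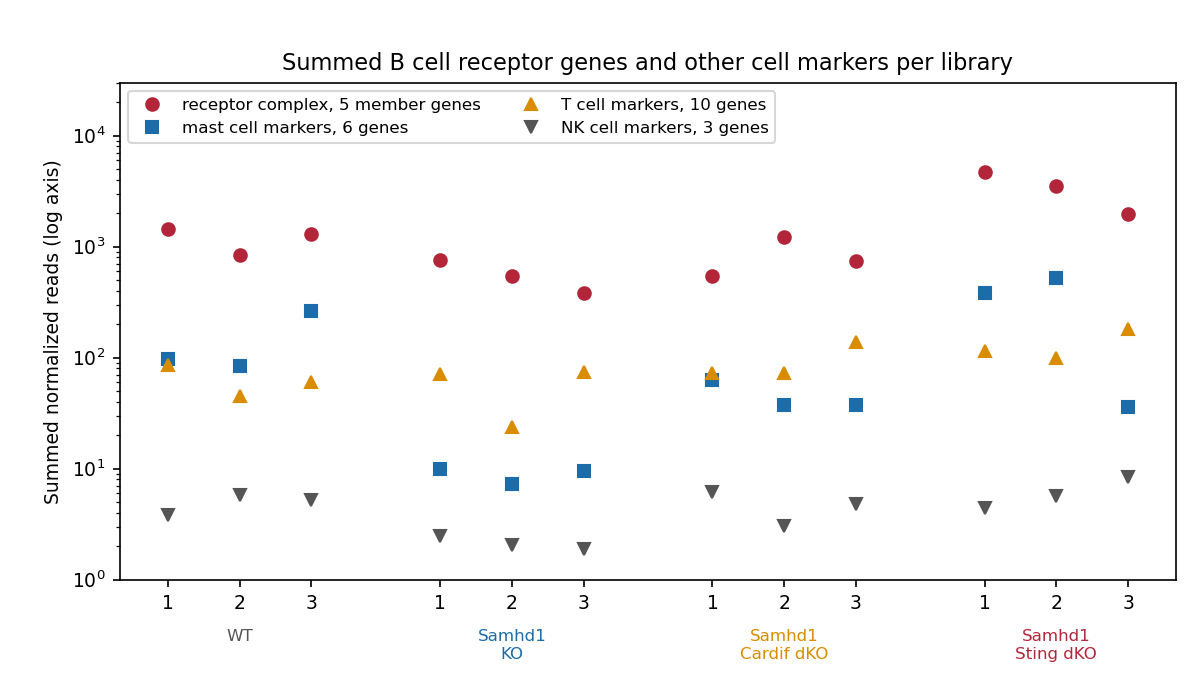
Summed normalized reads (log axis) of the 5 receptor complex genes and of mast cell, T cell and NK cell markers in each of the 12 libraries, by genotype and replicate. The receptor sum is highest in the 3 Samhd1 Sting dKO libraries, while the mast cell sum there is 385, 521 and 35.8.

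Genes outside the list were ranked by how closely they followed the mean log2 value of Cd79a, Cd79b, Cd22 and Blk over the 12 libraries, after each group mean had been subtracted from both. Among 10984 genes with a mean of at least 50 normalized reads, those that followed it closely included Ddx55 (Pearson r of 0.962), Snn (0.960), Tbc1d10c (0.959), Med28 (0.946), BC031181 (0.946), 1110008L16Rik (0.946), Pdrg1 (0.933), Ints4 (0.911) and Nt5c (0.910). The ranking is a description over 12 libraries with 8 residual degrees of freedom, in which all genes of a library share its size factor. Between groups, Snn and Tbc1d10c differed by a log2 change of 1.603 and 2.45 in Samhd1 Sting dKO against Samhd1 KO. The other 7 differed by -0.15 to 0.15.

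In the authors' deposited table of Samhd1 Sting dKO against Samhd1 Cardif dKO, 155 of 15721 rows (0.986%) passed the authors' 10% false discovery rate, and 112 of these were higher in Samhd1 Sting dKO. The B cell list held 13 of those rows, which is 38.2% of its 34 rows, and all 13 were higher. They were Igh-6, Igk-C, Cd79a, Cd22, Ms4a1, Ebf1, Pax5, Siglecg, Fcer2a, Fcrla, Fcrl1, Pou2af1 and Btla. The smallest adjusted p of the list in the authors' deposited table was that of Btla, 0.00681, with a log2 ratio of 2.28. Cd22 followed with 0.0115 and a log2 ratio of 1.96 in the authors' deposited table.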

How the data were processed

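The files hold strand-specific libraries of poly-dT-enriched RNA from FACS-sorted peritoneal macrophages, 3 per genotype. Genes came from Ensembl 61 on mm9, per the file headers. Tools named in the submitters' processing notes are DESeq 1.6.1 and bedtools 2.16.2, while an aligner was not given in the sources used here. Each deposited signal value is a gene's read number over the size factor that the authors set for its library. Dividing by what 1 read is worth gave whole reads for 100% of values in each library (tolerance 1e-04). For Samhd1 Cardif dKO replicate 2 that worth was 1.00. The deposited transcript lengths were used for levels per kilobase. The deposited fold column is the authors' ratio of Samhd1 Sting dKO to Samhd1 Cardif dKO, the deposited log2 column its logarithm, and the deposited p-value columns the authors' test of it.

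Values were log2(normalized reads + 1), a scale that understates changes at low levels. A gene was tested where 3 or more libraries had 10 or more normalized reads. limma 3.58.1 (R 4.3.3) fitted 1 mean per group to all 12 libraries with a trended variance prior, with 8 residual degrees of freedom, with p-values of the 6 contrasts adjusted separately by the Benjamini-Hochberg method and a threshold of 0.05. The fit was tested on simulated data. The members and lists were chosen with earlier results of these data known, so no test was made of a list. Named in full are the receptor genes, Cd22, Ms4a1, Pax5, Ebf1, Blk, the B-1 and B-2 genes and every called member. Non-members came from lists of receptor signalling, other B lineage, plasma cell and cell type genes. Some genes of these lists are not reported here. Alternatives were edgeR 4.0.16 on the recovered reads, DESeq2 1.42.0, other filters, pseudocounts of 0.5 and 5, TMM scaling, age or sex as covariates, fits of 2 groups, a replicate block and each library left out. Replicates of a group differed by more than counting noise (chi-square per degree of freedom 12.8 to 48.1 over 12 pairs).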

Additional observations from a re-analysis of the deposited data

How the results depend on the processing

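The median log2 change of the tested rows kept its direction in all 6 comparisons when any 1 library was left out. It then lay from 2.22 to 2.85 for Samhd1 Sting dKO against Samhd1 KO and from -1.16 to -0.80 for Samhd1 KO against WT. Its direction also held with edgeR under TMM factors, a filter at 50 normalized reads, pseudocounts of 0.5 and 5, and TMM scaling. The median was not taken under the other settings, which include DESeq2, the covariates, the replicate block and fits of 2 groups. The count of called rows moved more. For Samhd1 KO against WT (0) it was 8 with DESeq2 (7 lower, 1 higher), 4 with the 2 groups alone and 0 to 2 without 1 library. For Samhd1 Sting dKO against WT (11) it was 21 with DESeq2, 2 with age as a covariate and 2 to 14 without 1 library. For Samhd1 Sting dKO against Samhd1 KO (24) it stayed between 18 and 27 over all settings. For Samhd1 Sting dKO against Samhd1 Cardif dKO (4) it was 24 with DESeq2, 0 with the 2 groups alone, with sex or with age as a covariate, and 0 to 6 without 1 library. It was 0 under every setting for Samhd1 Cardif dKO against WT and against Samhd1 KO. The cause of these differences was not tested.

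The replicate numbers did not pair the libraries: correlations of same-numbered deviations ran from -0.43 to 0.37, and in 0 of 6 contrasts was every pair over 0.1. With the replicate number as a block the counts were 0 for Samhd1 KO against WT, 8 for Samhd1 Sting dKO against WT, 26 for Samhd1 Sting dKO against Samhd1 KO and 2 for Samhd1 Sting dKO against Samhd1 Cardif dKO.

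Some single changes turned their sign under another setting. For Samhd1 KO against WT, Cr2 was -0.017 and -0.0088 with edgeR under TMM and DESeq2 size factors, and ran from -0.36 to 0.62 when 1 library was left out. Bhlhe41 ran from -0.22 to 0.022 there. Bach2, in Samhd1 Sting dKO, ran from -0.13 to 0.10 against Samhd1 KO and from -0.19 to 0.018 against Samhd1 Cardif dKO. Cxcr5 in Samhd1 Sting dKO against WT was -0.12 with age as a covariate, beside 0.51 in the main fit. With all 4 B-1 genes in place of Zbtb32, the difference in the B-2 share between Samhd1 KO and WT was -1.03 percentage points in place of 4.67. Depth limits Cd5, Ctla4, Cr2 and Fcer2a, whose reads per library were few.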
